A study of Rattus norvegicus with 6 samples.

Results

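The complement system was examined in rat brain through 9 genes: C1qa, C1qb, C1qc, C1s, C3, C3ar1, C5ar1, Serping1 and Cd55. They were taken by gene symbol from a table of 32623 genes, and each symbol matched 1 row. Poly(A) RNA was sequenced in 6 brain libraries. By their genotype, 3 libraries had pcDNA3.1, a mammalian expression plasmid without insert (here vector), and the other 3 had pcDNA3.1/LINC00894, the same plasmid with a human non-coding RNA (here LINC00894). The study's title speaks of ischemia and reperfusion of the brain. No label states ischemia, brain region, age, sex, strain or how the plasmid was given. Whether each library is 1 animal is likewise not stated, so p-values measure a spread between libraries that may be technical in part. No row carried the symbol LINC00894, so its level was not analysed here.

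Complement is a protein cascade of innate immunity. The classical pathway starts when C1q, assembled from A, B and C chains, binds a surface and activates the proteases C1r and C1s, and all pathways meet at the cleavage of C3. The fragments C3a and C5a act on the receptors C3ar1 and C5ar1, while Serping1 (C1 inhibitor) blocks C1r and C1s, and Cd55 (decay-accelerating factor) takes apart the convertases. In the brain, C1q is made mainly by microglia and C3 by reactive astrocytes, microglia and other cells, and both are known for tagging synapses for removal and for roles after ischemia.

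Libraries held 12843875 to 16268464 summed gene counts. Vector replicate 3 stood apart most often: among 15121 genes tested it was the lowest library for 23.5% and the highest for 23.8%. LINC00894 replicate 3 was lowest for 22.0%, and LINC00894 replicate 1 was highest for 22.2%, whereas vector replicates 1 and 2 and LINC00894 replicate 2 were each lowest for 12.1% to 12.3% of genes. The Y-linked genes Kdm5d and Eif2s3y together had 1498 to 2071 counts in 4 libraries and 0 in LINC00894 replicates 1 and 2. The LINC00894 libraries were thus not all made from the same RNA, so their spread is not technical alone. Y-linked RNA was present in every vector library but only in replicate 3 of LINC00894, so its presence was uneven between the groups. Markers of neurons, astrocytes, oligodendrocytes and microglia were all detected, as for brain. Among the endothelial markers, Cldn5 was listed at 0 in all 6 libraries, whereas Flt1, Cdh5 and Kdr were detected in each. Flt1 had 1314 to 2897 counts, Cdh5 323 to 955 and Kdr 256 to 919. Ttr, the defining marker of choroid plexus, had at most 13 counts. Because these are bulk libraries, fewer cells of a type and less RNA per cell cannot be told apart.

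All 9 genes passed the filter on low counts, and none passed edgeR's quasi-likelihood test at a Benjamini-Hochberg adjusted p of 0.05, where 0 of 15121 genes passed (0%). The adjusted p was 0.981 for each of the 9. DESeq2 called 11 of the 15121 genes, none of them among the 9, and at an unadjusted p under 0.05 edgeR held 610 genes. Fold changes, given as log2 of LINC00894 over vector, were above 0 for 8 of the 9 genes, against 51.8% of all genes, with a median of 0.27 against 0.01 for all genes. At an unadjusted p under 0.05 there was 1 of the 9 higher in LINC00894, C5ar1, against 1.82% of all genes, and 0 lower, against 2.22%. The groups overlapped for all 9. Among all genes they did not overlap, by library-scaled counts (CPM), for 4.98% with LINC00894 higher and 3.88% with it lower. Two-sided exact permutation tests of FPKM (counts per exonic length and sequencing depth), run for the 9 genes, gave p between 0.2 and 0.7, where 3 against 3 libraries cannot go below 0.1.

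**Figure D1:**
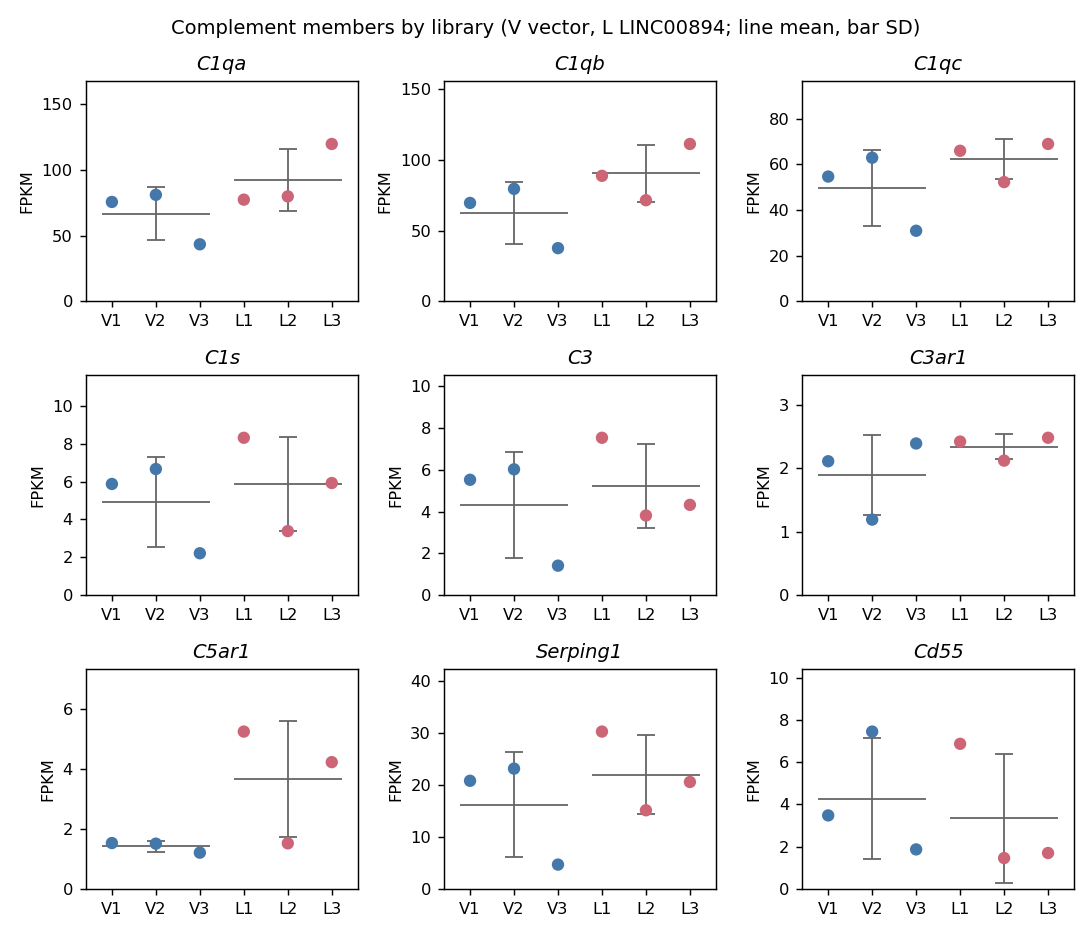
FPKM of the 9 complement genes in each library (V1 to V3 vector, blue; L1 to L3 LINC00894, red), with the mean as a line and the SD as a bar (n = 3 each); the vertical axes start at 0 and differ between panels. V3 is the lowest library for C1qa, C1qb, C1qc, C1s, C3, C5ar1 and Serping1, and C5ar1 is high in L1 and L3 only.

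The sequences before the gene starts are shown for C1qa and C1qb, which had the closest patterns of the 9 genes, and for C3, which followed another. A RefSeq table of the GRCr8 assembly held 5 of the 9 genes (C1qa, C1qb, C3, C3ar1 and Cd55). The 250 bases before each start are given on the gene's strand, 5′ to 3′, with matches to the searched motifs in capitals.
C1qa (chr5:154419934-154420183, minus strand): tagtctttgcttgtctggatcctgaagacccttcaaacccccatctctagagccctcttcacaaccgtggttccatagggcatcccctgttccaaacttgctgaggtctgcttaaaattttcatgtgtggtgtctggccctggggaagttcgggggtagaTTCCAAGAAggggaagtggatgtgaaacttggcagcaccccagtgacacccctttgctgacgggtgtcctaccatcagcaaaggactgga
C1qb (chr5:154407828-154408077, minus strand): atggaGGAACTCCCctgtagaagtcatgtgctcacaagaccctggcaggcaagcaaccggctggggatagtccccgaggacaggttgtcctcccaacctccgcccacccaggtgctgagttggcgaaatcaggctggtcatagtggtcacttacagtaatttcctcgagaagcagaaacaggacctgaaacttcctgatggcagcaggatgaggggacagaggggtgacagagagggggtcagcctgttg
C3 (chr9:2201340-2201589, minus strand): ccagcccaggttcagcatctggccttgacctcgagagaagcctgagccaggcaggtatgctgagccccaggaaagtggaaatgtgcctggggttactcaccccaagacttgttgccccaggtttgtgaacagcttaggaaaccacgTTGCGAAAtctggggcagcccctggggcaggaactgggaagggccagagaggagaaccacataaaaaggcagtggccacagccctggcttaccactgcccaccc
On both strands, 6 motifs were searched: GAGGAAGT (PU.1-like), GAAANNGAA (interferon response-like), TTCNNNGAA (STAT-like), TTGCNNAA (C/EBP-like), GGGANNTCC (NF-kB-like) and TATAAA, a core promoter element. No matches overlapped. The C1qa window held TTCNNNGAA from 90 to 82 bases before the start, a motif in 7.67% of all 33469 windows of the table. The C1qb window held GGGANNTCC on the reverse strand from 245 to 237 bases before the start, a motif in 3.68% of windows, and the C3 window held TTGCNNAA from 104 to 97 bases before the start, a motif in 9.22%. No searched motif was shared by these windows, and none was found in those of C3ar1 and Cd55. The remaining motifs were held by 2.04% (GAGGAAGT), 8.12% (GAAANNGAA) and 12.9% (TATAAA) of all windows.

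The C1q chains were the most abundant of the 9 on this per-length scale. C1qa had 75.6, 81.1 and 43.4 FPKM in the vector libraries, in the order of their replicates, and 77.4, 79.9 and 119.8 FPKM in the LINC00894 libraries. C1qb stood at 69.6, 79.6 and 37.6 FPKM in vector and 88.8, 71.5 and 111.3 FPKM in LINC00894. C1qc stood at 54.6, 62.9 and 30.9 FPKM in vector and 65.9, 52.2 and 68.9 FPKM in LINC00894. All chains were lowest in vector replicate 3 and highest in LINC00894 replicate 3, and the other 4 libraries lay between these for every chain, with the groups overlapping. The means were 66.7 ± 20.4 and 92.3 ± 23.8 FPKM for C1qa, 62.3 ± 21.9 and 90.6 ± 19.96 FPKM for C1qb and 49.5 ± 16.6 and 62.3 ± 8.90 FPKM for C1qc (vector and LINC00894, mean ± SD, n = 3 each). By edgeR the log2 fold changes were 0.40 (SE 0.26, 95% interval -0.17 to 0.98) for C1qa, 0.47 (SE 0.27, -0.13 to 1.08) for C1qb and 0.27 (SE 0.25, -0.28 to 0.82) for C1qc. Each interval held 0. Without vector replicate 3 the log2 fold changes were 0.16, 0.20 and 0.0035 for C1qa, C1qb and C1qc, and without LINC00894 replicate 3 they were 0.16, 0.28 and 0.17.

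The proportions of the chains varied less between libraries than their summed level. The ratio of C1qa to C1qb levels in FPKM ran from 0.871 in LINC00894 replicate 1 to 1.15 in vector replicate 3. The ratio of C1qb to C1qc levels ran from 1.22 in vector replicate 3 to 1.62 in LINC00894 replicate 3. The summed level of the chains ran from 111.9 FPKM in vector replicate 3 to 300.0 FPKM in LINC00894 replicate 3. By the coordinates in the table (genome build not stated) the genes lie side by side on the minus strand of chromosome 5, with C1qb from 155246447 to 155252003, C1qc from 155255005 to 155258392 and C1qa from 155261250 to 155264143. They span 17697 bases, and the table has no other gene between them.

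Summed microglial markers differed less between libraries than C1q did. The 10 markers, summed in FPKM, stood at 132.2, 124.8 and 123.8 in vector and 133.7, 151.9 and 165.3 in LINC00894, and 7 of 10 had a log2 fold change above 0 (median 0.20). Aif1, the microglial marker Iba1, had the smallest unadjusted p of them (log2 fold change 0.85, edgeR adjusted p = 0.981). Vector replicate 3, lowest for C1q, was highest of the 6 for Tmem119, at 6.77 FPKM, and Sall1, at 6.87 FPKM. It was lowest for Tyrobp, at 9.38 FPKM, Csf1r, at 19.05 FPKM, and Aif1, at 4.77 FPKM. For the other microglial markers it lay between the extremes. Tmem119 and Tyrobp encode membrane proteins of microglia. Set against the summed markers, C1qa stood at 57.2%, 65.0% and 35.1% in vector and 57.9%, 52.6% and 72.5% in LINC00894. C1qb stood at 52.7%, 63.8% and 30.4% of that sum in vector, against 66.4%, 47.1% and 67.4% in LINC00894. Vector replicate 3 was the lowest library for both. On this relative scale the log2 difference between groups was 0.25 for C1qa, 0.35 for C1qb and 0.15 for C1qc (two-sided exact permutation p = 0.5, 0.5 and 0.8, 6 genes tested). Without vector replicate 3 these differences were -0.014, 0.038 and -0.14.

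**Figure D2:**
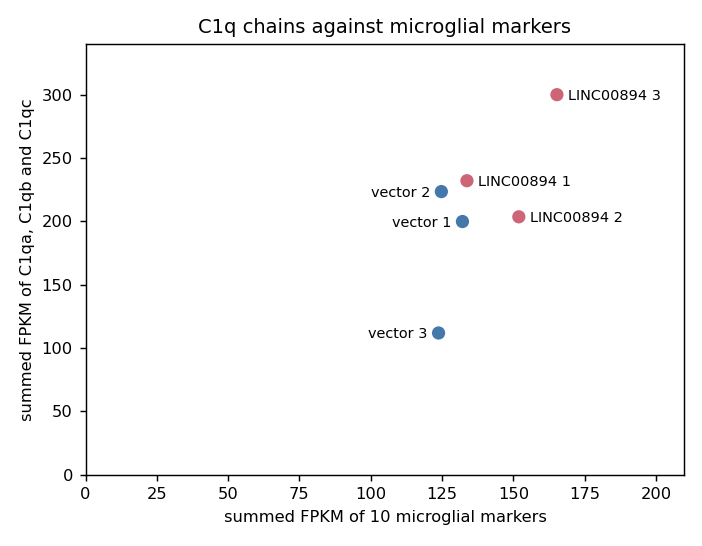
Summed FPKM of C1qa, C1qb and C1qc (vertical axis) against the summed FPKM of 10 microglial markers (horizontal axis), 1 point per library, with vector in blue and LINC00894 in red. Vector replicates 1 to 3 lie between 123.8 and 132.2 on the horizontal axis, but vector replicate 3 lies at 111.9 on the vertical axis, below the other 5 libraries at 199.9 to 300.0.

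C1s, a protease of the classical pathway, stood at 5.87, 6.66 and 2.21 FPKM in vector and 8.31, 3.38 and 5.92 FPKM in LINC00894. C3, the component on which all pathways meet, stood at 5.52, 6.02 and 1.41 FPKM in vector and 7.53, 3.81 and 4.32 FPKM in LINC00894. For both genes LINC00894 replicate 1 was the highest library and vector replicate 3 the lowest, and LINC00894 replicate 2 lay below vector replicates 1 and 2. C1s had means of 4.91 ± 2.37 and 5.87 ± 2.47 FPKM and a log2 fold change of 0.19 (SE 0.42, 95% interval -0.75 to 1.12). C3 had means of 4.32 ± 2.53 and 5.22 ± 2.02 FPKM (SD, n = 3 each) and a log2 fold change of 0.21 (SE 0.46, 95% interval -0.83 to 1.25). The direction turned without vector replicate 3 (-0.18 for C1s and -0.23 for C3) and without LINC00894 replicate 1 (-0.14 for each). In the table C1s lies on chromosome 4 from 157143592 to 157155609 and C3 on chromosome 9 from 9721105 to 9747167. Summed astrocyte markers were also lowest in vector replicate 3, at 825.5 FPKM against 1082.4 to 1288.3 in the other libraries. Of these markers Gfap was lowest there, at 156.0 FPKM, Slc1a2 and Aldh1l1 were highest, and the remaining ones lay between the extremes. Summed oligodendrocyte markers were highest there, at 2919.4 FPKM against 1301.1 to 2261.4. The part of these cells in the complement values was not tested.

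Serping1, the inhibitor of C1r and C1s, had the deepest single low value of the 9 genes. It stood at 20.8, 23.1 and 4.68 FPKM in vector and 30.3, 15.1 and 20.6 FPKM in LINC00894, from 139 counts in vector replicate 3 to 748 in LINC00894 replicate 1. Its pattern resembled that of C3 and C1s, with LINC00894 replicate 1 highest, vector replicate 3 far below the rest, and overlapping groups. The means were 16.2 ± 10.1 and 22.0 ± 7.67 FPKM, with a log2 fold change of 0.37 (SE 0.48, 95% interval -0.71 to 1.46), which came to -0.088 when vector replicate 3 was left out and to 0.082 when LINC00894 replicate 1 was. The highest library was 6.47 times the lowest for Serping1 (chromosome 3, 72161189 to 72171078), 5.34 times for C3, 3.76 times for C1s and 2.23 to 2.96 times for the C1q chains.

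Cd55, which protects cells from complement by taking apart the convertases, did not follow the other genes. It lies on chromosome 13 from 47126741 to 47154292 and stood at 3.48, 7.45 and 1.87 FPKM in vector and 6.87, 1.46 and 1.70 FPKM in LINC00894. Vector replicate 2 and LINC00894 replicate 1 were high and LINC00894 replicates 2 and 3 were the lowest libraries, so the groups overlapped over nearly their whole range. The log2 fold change was -0.42 (SE 0.62, 95% interval -1.82 to 0.97), with means of 4.27 ± 2.87 and 3.34 ± 3.06 FPKM. It was -1.49 without LINC00894 replicate 1 and 0.23 without vector replicate 2. Summed markers of vessel wall and meninges were also highest in these libraries, at 29.6 FPKM in LINC00894 replicate 1 and 25.1 in vector replicate 2 against 15.2 to 22.6 in the other 4; 2 of the 5 tested markers had a log2 fold change above 0, and their part in the result was not tested.

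C5ar1, the receptor for C5a on microglia, neutrophils and other myeloid cells, showed the largest difference among the 9. It stood at 1.53, 1.51 and 1.21 FPKM in vector and 5.25, 1.52 and 4.23 FPKM in LINC00894, from 40, 48 and 37 counts and from 134, 38 and 110 counts. LINC00894 replicates 1 and 3 lay above every vector library, and LINC00894 replicate 2 lay within the vector range. The means were 1.42 ± 0.179 and 3.67 ± 1.93 FPKM (SD, n = 3 each), and the log2 fold change was 1.30 (SE 0.42, 95% interval 0.35 to 2.25; edgeR adjusted p = 0.981, two-sided exact permutation p of the FPKM values 0.2). DESeq2 gave an adjusted p of 0.709. Without LINC00894 replicate 1 the interval held 0 (0.95, -0.057 to 1.97). The gene lies on chromosome 1 from 78186776 to 78195328. Relative to the summed microglial markers C5ar1 stood at 1.16%, 1.21% and 0.977% in vector and 3.93%, 1.00% and 2.56% in LINC00894, a log2 difference of 0.96 (two-sided exact permutation p = 0.3).

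Markers of neutrophils and perivascular macrophages were uneven between the same libraries. The 5 neutrophil markers summed to 36.2, 14.2 and 8.59 FPKM in vector and 90.2, 12.2 and 32.1 FPKM in LINC00894, most of it S100a8 and S100a9, calcium-binding proteins of neutrophils and monocytes. The granule genes Mpo and Elane, which mark immature neutrophils, had 0 to 5 counts in each library. All 3 neutrophil markers tested had a log2 fold change above 0. The 6 perivascular macrophage markers summed to 15.7 FPKM in LINC00894 replicate 1 and to 4.84 to 6.10 FPKM in the other 5 libraries, with 3 of 4 tested above 0. LINC00894 replicate 1 was thus highest for C5ar1 and for both lists, while LINC00894 replicate 3, second for C5ar1, lay below vector replicate 1 for the neutrophil sum. The part of these cells in the C5ar1 values was not tested.

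C3ar1, the receptor for C3a on microglia and macrophages, was the steadiest of the 9 genes. It lies on chromosome 4 from 155684029 to 155690869 and stood at 2.11, 1.19 and 2.39 FPKM in vector and 2.42, 2.12 and 2.48 FPKM in LINC00894. Vector replicate 2 was the low library, and the other 5 lay close together. The means were 1.90 ± 0.628 and 2.34 ± 0.193 FPKM, with a log2 fold change of 0.24 (SE 0.33, 95% interval -0.50 to 0.97) that was -0.023 without vector replicate 2. C3ar1 was the exception to the low values of vector replicate 3, which held its highest scaled CPM. In FPKM, C3ar1 over C5ar1 came to 1.38, 0.788 and 1.98 for the vector libraries and 0.461, 1.39 and 0.586 for the LINC00894 libraries.

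**Figure D3:**
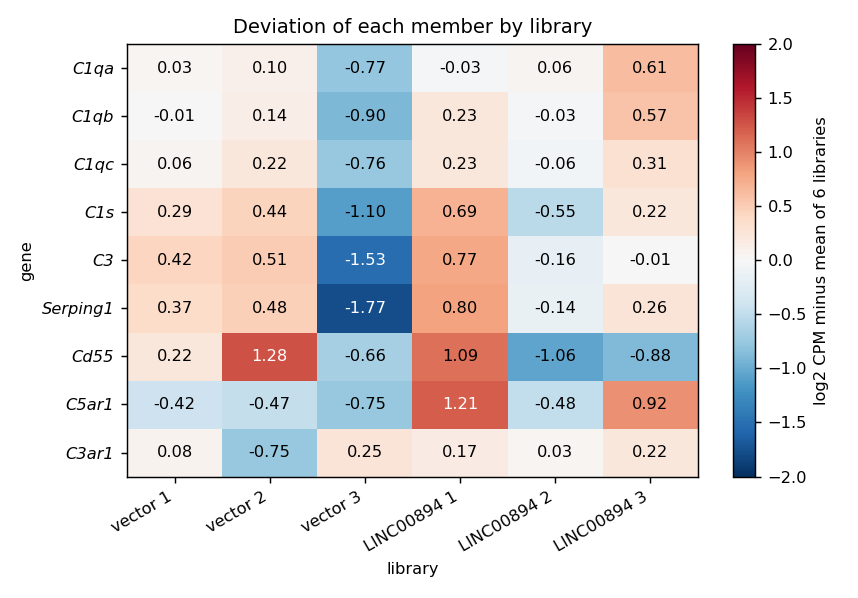
Log2 CPM of each gene minus its mean over the 6 libraries (rows, genes; columns, libraries; red above and blue below the mean). Vector replicate 3 runs from -0.66 for Cd55 to -1.77 for Serping1 in 8 genes and stands at 0.25 for C3ar1, while C5ar1 stands at 1.21 and 0.92 in LINC00894 replicates 1 and 3.

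Patterns over the libraries were compared between the 9 genes. As a measure of likeness, the root-mean-square difference of centred log2 CPM over the 6 libraries was smallest for C1qa with C1qb and C1qb with C1qc (0.13 each), then for C3 with Serping1 (0.15) and C1qa with C1qc (0.18). C1s lay 0.26 from C3, 0.33 from Serping1 and 0.33 to 0.47 from the C1q chains. C5ar1 lay 0.55 from its closest gene of the 9 (C1qb) and Cd55 lay 0.65 from its own (C1s). The SD of log2 CPM over the 6 libraries exceeded that of 98.4% of all genes for Cd55, 97.6% for Serping1, 96.5% for C5ar1 and 96.3% for C3, against 71.3% to 82.1% for the C1q chains and 68.6% for C3ar1.

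Among 13723 other genes with a mean of at least 1 FPKM, those closest to the mean pattern of the C1q chains were Timm10 (0.048), Ppidl1 (0.074), Tceanc2 (0.080), Rad1 (0.081), Clu (0.081) and Phb (0.085), by the same measure over the 6 libraries. Of these, Clu (clusterin) is itself a complement inhibitor, while Timm10 and Phb encode mitochondrial proteins. Each had its lowest value in vector replicate 3 and its highest in LINC00894 replicate 3. Closest to C3 were Sh3d21 (0.13), Ehd2 (0.20) and Ret (0.21), and closest to Serping1 were Csf2rb (0.13), a receptor subunit of myeloid cells, A3galt2 (0.14) and Mall (0.19).

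The wider pathway was described by a list of 55 other complement genes, of which 53 were in the table and 42 passed the filter. Of the 42, 24 had a log2 fold change above 0 and 18 below (median 0.09, against 0.01 for all genes). Leaving out vector replicate 3 turned this to 20 above and 23 below (median -0.014), and leaving out LINC00894 replicate 1 to 18 and 25 (median -0.018), of 43 tested in each. With any other single library left out, the median was 0.080 to 0.155. With all libraries, none of the 42 passed edgeR's adjusted p of 0.05. At an unadjusted p under 0.05 there were 2 of 42 higher (Fcna and Itgax), against 1.82% of all genes, and 2 lower (Sez6l and Nptx2), against 2.22%. By scaled CPM the groups did not overlap for 4 of 42 with LINC00894 higher (C2, C4b, Fcna and Cd59), against 4.98% of all genes, and for 2 with it lower (Sez6l and Lrp1), against 3.88%.

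Activation genes had the highest median of the roles, 0.30, with 10 of 13 above 0, against 51.8% of all genes. Medians by role were not taken with single libraries left out. Fcna, ficolin A of the lectin pathway, was low and higher in each LINC00894 library, at 0.67, 0.73 and 0.75 FPKM in vector and 1.59, 1.5 and 1.06 FPKM in LINC00894 (edgeR 0.87 on the log2 scale, SE 0.38, adjusted p = 0.981). It rested on 12 to 28 counts a library. Properdin (Cfp), which stabilises the alternative convertase, stood at 17.8 ± 3.28 and 20.2 ± 1.42 FPKM, and the lectin protease Masp2 at 11.1 ± 1.498 and 12.4 ± 1.85 FPKM. Ptx3, a pentraxin that binds C1q, had 25.7, 28.4 and 3.14 FPKM in vector and 24.0, 6.76 and 18.5 FPKM in LINC00894, again lowest in vector replicate 3. Its interval overlaps that of another gene. C1r, the partner protease of C1s and its neighbour on chromosome 4, C4b and C2 were chosen for mention with their values known. C1r stood at 6.96, 9.23 and 3.46 FPKM in vector and 13.4, 3.88 and 8.18 FPKM in LINC00894, and like C1s it was highest in LINC00894 replicate 1 and lowest in vector replicate 3. C4b, at 0.80, 0.74 and 0.18 FPKM in vector and 1.67, 1.19 and 0.87 FPKM in LINC00894, and C2, at 4.64 ± 0.405 and 6.19 ± 0.933 FPKM, had groups that did not overlap. C4a and C4b are near-identical copies and C2 overlaps Cfb, so how reads were divided among these genes is uncertain.

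Terminal components, which build the membrane attack complex, were scarce. Of the 7 listed, 3 passed the filter: C8g at 2.37 ± 0.996 and 2.45 ± 0.607 FPKM, C7 at 2.04 ± 0.512 and 1.87 ± 0.769 FPKM and C6 at 0.437 ± 0.394 and 0.470 ± 0.399 FPKM. Their log2 fold changes were -0.011, -0.20 and 0.010, with SEs of 0.42, 0.34 and 0.79. The interval of C8g overlaps that of another gene, so how its reads were assigned is uncertain. C5, the source of the ligand of C5ar1, had 0 to 4 counts a library, too few to compare the groups, and C8a, C8b and C9 had 0 to 4. The C5ar1 neighbour C5ar2, the second C5a receptor, stood at 1.99, 1.79 and 0.65 FPKM in vector and 4.14, 1.59 and 0.59 FPKM in LINC00894; it is named after its values were seen. It was high in LINC00894 replicate 1, as C5ar1 was, but lowest in LINC00894 replicate 3.

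Of the regulators, 6 of 14 were above 0, with a median of -0.13. Clu stood at 433 ± 140 and 540 ± 113 FPKM (log2 fold change 0.25, SE 0.25). Cd59, which blocks the membrane attack complex, stood at 61.8, 73.5 and 59.1 FPKM in vector and 85.5, 75.3 and 76.7 FPKM in LINC00894, a small difference without overlap (0.22, SE 0.15). For Sez6l and Sez6l2, neuronal proteins related to complement inhibitors, edgeR gave -0.44 (SE 0.16, adjusted p = 0.981) and -0.23 (SE 0.17) on the log2 scale. Sez6l stood at 47.3, 48.7 and 45.9 FPKM in vector and 29.4, 39.25 and 40.45 FPKM in LINC00894, so each LINC00894 library lay below each vector library; its interval overlaps another row of the table.

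Receptors and C1q binders had 7 of 12 above 0 and a median of 0.08. Itgax, a subunit of complement receptor 4, stood at 2.13, 1.91 and 0.86 FPKM in vector and 4.4, 1.98 and 2.95 FPKM in LINC00894 (0.86, SE 0.38, edgeR adjusted p = 0.981). Its interval in the table lies within that of Itgam, so reads of these genes may not be told apart. Itgam and Itgb2, which form complement receptor 3 and are named after their values were seen, stood at 2.39 and 3.99 FPKM in vector replicate 3 against at least 8.55 and 10.8 FPKM in the other 5 libraries. Nptx2, a neuronal pentraxin known to bind C1q, stood at 82.7, 109.1 and 66.0 FPKM in vector and 56.4, 29.4 and 77.6 FPKM in LINC00894 (-0.73, SE 0.31, edgeR adjusted p = 0.981). Of the same family, Nptxr stood at -0.55 (SE 0.29) and Nptx1 at -0.17 (SE 0.24) on the log2 scale. Calr (calreticulin), an abundant chaperone that binds C1q, stood at 346 ± 85.0 and 369 ± 44.8 FPKM (SD, n = 3 each).

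**Figure D4:**
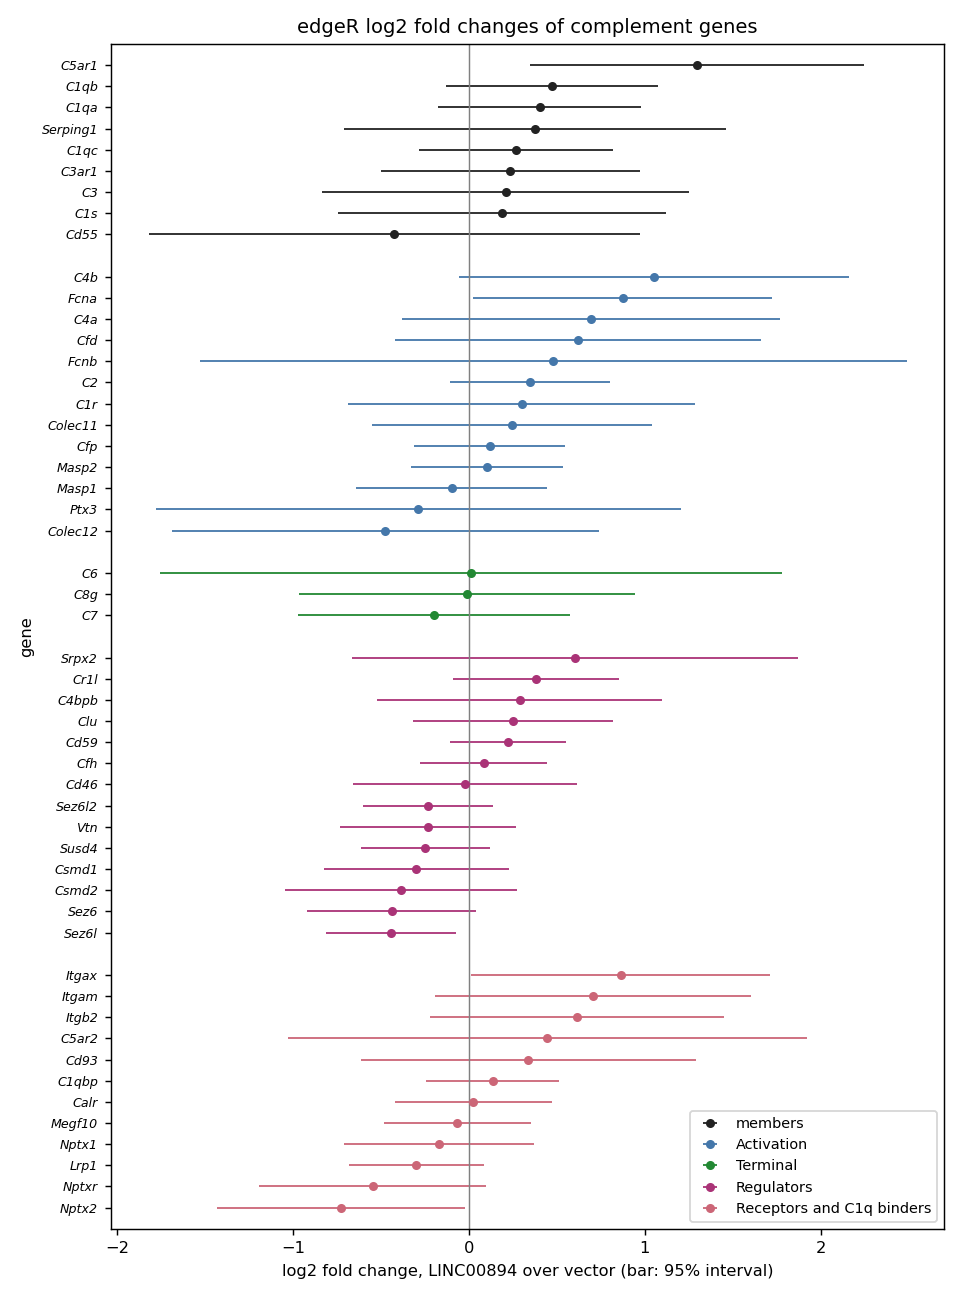
edgeR log2 fold changes of LINC00894 over vector for the 9 genes and 42 other complement genes by role (points), with 95% intervals (bars). The interval of C5ar1 runs from 0.35 to 2.25, and those of the other 8 genes hold 0.

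The log2 fold changes depended on single libraries. Without vector replicate 3 the median log2 fold change of the 9 genes was 0.0035, with 5 of 9 above 0, against 0.27 and 8 of 9 in all libraries. Without LINC00894 replicate 1 it was 0.22, with 6 of 9 above 0. Without both, a fit chosen after seeing the data, it was -0.012, with 4 of 9 above 0, and C1s, C3 and Serping1 stood at -0.49, -0.56 and -0.36. With any other single library left out, the median was 0.17 to 0.51, with 8 of 9 above 0. C5ar1 stayed above 0 in all of these fits, from 0.95 without LINC00894 replicate 1 to 1.63 without LINC00894 replicate 2. It was 0.86 without vector replicate 3 and LINC00894 replicate 1.

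**Figure D5:**
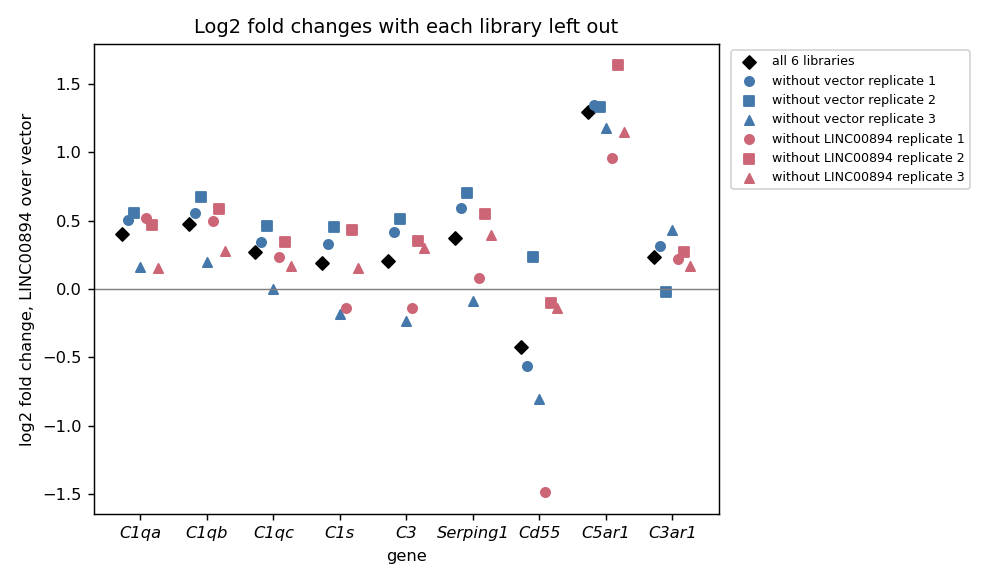
Log2 fold changes of LINC00894 over vector (vertical axis) for the 9 genes (horizontal axis) in all 6 libraries (black) and with each library left out (coloured points). C5ar1 lies between 0.95 and 1.63, and C1s, C3, Serping1, C3ar1 and Cd55 have points on both sides of 0.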

How the data were processed

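Per the labels' protocols, the 6 libraries were made from poly(A) RNA with random primers and read from both ends. HISAT2 2.0.1 and DESeq2 appear, with no role given, in the submitters' processing notes. Counter, annotation, genome build and use of strand are not stated. None of the 9 genes overlapped another row of the table, while 12 of the other complement genes did.

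The authors deposited 1 table that holds raw counts and FPKM for each library, per the file headers. Recomputing FPKM from each count, the exonic length and the summed counts gave the deposited values to within 0.005. Rows without a symbol (388) held 0.0236% of counts and stayed in the fit. Replicates were numbered in accession order, and the numbers pair nothing.

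Counts were filtered (filterByExpr, minimum count 10, minimum total 15), scaled with TMM factors and tested with edgeR 4.0.16 (quasi-likelihood F-test, R 4.3.3, 2 groups, no covariates). P-values were adjusted by Benjamini-Hochberg over all 15121 genes, with a threshold of 0.05. Standard errors were taken from the log2 fold change and the F statistic. The biological coefficient of variation was 0.238. Centred log2 CPM used a prior count of 2. Exact permutation tests used 20 arrangements. The fits were tested on 3 simulated data sets, with 200 of the genes above 2 CPM changed and no library made to stand apart. For 2-fold changes edgeR called 56.3%, for 4-fold changes 99%, and 5.18% of its calls were false. Each simulated gene had the spread typical of its abundance. These rates may therefore not hold for genes as variable as Cd55, Serping1, C5ar1 and C3.

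The members and lists were chosen with earlier results of these data known. Genes outside the 9 were named by a rule: genes of the pathway list at an unadjusted p under 0.05, the 3 of each role with the highest mean FPKM, and the genes of closest pattern, while markers could be named beside a result; other genes are marked in the text. Mbl2 and Csmd3 of the pathway list and Pecam1 and Col1a2 of the marker lists were not analysed here. Cfb had 2 rows, neither of which passed the filter. Alternatives were DESeq2 1.42.0, median-of-ratios scaling, other filters on low counts, limma 3.58.1 (limma-voom, and log2 FPKM with a pseudocount of 1 or 0.1 and a mean of at least 0.5), removal of each library's length trend, presence of Y-linked counts as a covariate, and each library left out. Plots were drawn with matplotlib 3.10.9.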

Additional observations from a re-analysis of the deposited data

How the results depend on the processing

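Under 16 alternatives, 12 of the 144 values of the 9 genes reversed, and none of the 9 passed an adjusted p of 0.05 under any of them (lowest 0.380, Cd55 without vector replicate 3 and LINC00894 replicate 1). The count of genes called over the whole table was 0 by edgeR, 11 by DESeq2, 8 with no filter on low counts and 0 to 9 with each library left out, of which 2 were called without vector replicate 1 and 9 without LINC00894 replicate 3. C5ar1 stayed above 0 throughout, at 0.85 to 1.63, with an unadjusted p under 0.05 in 14 of 16. C1qa and C1qb also kept their direction in all 16. With 1 library left out, C1qa ranged from 0.16 to 0.55, C1qb from 0.20 to 0.67 and C1qc from 0.0035 to 0.46. In these fits C1s ranged from -0.18 to 0.46, C3 from -0.23 to 0.51 and Serping1 from -0.088 to 0.70. C3ar1 ranged from -0.023 to 0.43 and Cd55 from -1.49 to 0.23. With Y-linked counts as a covariate, which sets LINC00894 replicate 3 against the vector libraries, C3 stood at -0.066, C1qa and C1qb at 0.77 each and Cd55 at -1.40. Without vector replicate 3 and LINC00894 replicate 1 together, C1qc, C1s, C3 and Serping1 stood at -0.012, -0.49, -0.56 and -0.36, and Cd55 at -1.84. Relative to microglial markers and with 1 library left out, C1qa ranged from -0.014 to 0.43 and C1qb from 0.038 to 0.57. On that scale C1qc ranged from -0.14 to 0.36 and C3 from -0.43 to 0.61. C3ar1 ranged from -0.17 to 0.34 and C5ar1 from 0.53 to 1.51. C1qa and C1qc turned without vector replicate 3, C3 without it (-0.43) or LINC00894 replicate 1 (-0.15), and C3ar1 without vector replicate 2. The median of the other complement genes, 0.093 in all libraries, was -0.014, -0.018 and -0.070 without vector replicate 3, without LINC00894 replicate 1 and without both. It was 0.080 to 0.155 with any other single library left out. On log2 FPKM with a pseudocount of 1, 510 genes were higher and 204 lower in LINC00894 at an unadjusted p under 0.05, against 275 and 335 by edgeR; that setting shifted the median of all genes to 0.067. No paired analysis was possible because the replicate numbers pair nothing. Among the 9 genes, C5ar1 and C3ar1 rested on the fewest counts in their highest library (134 and 76).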
